A study of Sus scrofa with 61 samples.

Results

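SULT1E1 and PAPSS2 are a pair of genes of the sulfation pathway, followed here in the liver of pigs from late gestation to 188 days of age. Sulfation attaches a sulfonate group to hormones, bile acids, drugs and carbohydrates. In hepatocytes the group comes from the activated donor 3'-phosphoadenosine 5'-phosphosulfate (PAPS), which PAPS synthases make from ATP and inorganic sulfate, and cytosolic sulfotransferases pass it on to small molecules. SULT1E1, the oestrogen sulfotransferase, sulfates oestrone and oestradiol, which then no longer bind the oestrogen receptor. PAPSS2 is a PAPS synthase that carries both the ATP sulfurylase and the kinase step on 1 protein. In humans, loss of PAPSS2 causes a skeletal dysplasia and lowers the sulfation of adrenal androgens.

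Every probe-set that the platform annotation maps to either symbol was taken, and each gene had 1: Ssc.12.1.S1_at for SULT1E1 and Ssc.10430.1.A1_at for PAPSS2. They are 2 of 6765 gene symbols annotated to probe-sets of the Affymetrix GeneChip Porcine Genome Array. This oligonucleotide array reads each transcript with a set of short probes. Both genes were chosen by their measured signals over the 4 stages. Their levels and differences between stages are therefore given as a description, with no test.

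All animals were German Landrace offspring of gilts fed a gestational low protein diet (LP). Livers were taken from 16 fetuses at 94 days post conception (94 dpc), and from 14, 15 and 16 pigs at 1, 28 and 188 days post natum (1 dpn, 28 dpn and 188 dpn), with 1 array per animal. Offspring of the adequate protein diet (AP) were not analysed here, so the values describe development within LP offspring and not an effect of the diet. Adjacent stages form period I (1 dpn minus 94 dpc), period II (28 dpn minus 1 dpn) and period III (188 dpn minus 28 dpn). Fetuses were recovered by Caesarean section in an experiment of its own, whereas the piglets were farrowed in another, and in period I the stage cannot be told apart from the experiment. Pigs at 28 and 188 dpn had an overnight fast, while none is stated for piglets at 1 dpn, so in period II an effect of fasting cannot be told apart from stage. Piglets that were kept after 1 dpn were fostered by sows on a standard diet, and the males among them were castrated. From weaning at 28 dpn to 188 dpn they were reared individually with free access to standard diets. In period III feed and housing therefore cannot be told apart from stage. Littermates were sampled, but litter, sex and weight are not in the labels and no fit holds them. P-values therefore measure the spread between these animals as if they were unrelated.

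Values are the deposited linear signal intensities, scaled by the authors to about the same mean on each array, and their log2. The median signal of an array was between 95.1 and 178 and was lower at later stages, with stage medians of 167 in the fetuses, 150 at 1 dpn, 118 at 28 dpn and 102 in pigs of 188 dpn. A signal under its array median is treated as weak. All 10 hepatocyte markers exceeded the array median in 50% or more of the livers of every stage. Their summed signal had medians of 491000 in the fetuses, 568000 at 1 dpn, 455000 at 28 dpn and 412000 in pigs of 188 dpn. The tissue was bulk liver, in which fewer cells of a type and less RNA per cell cannot be told apart.

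SULT1E1 was weak in most fetuses and strong in every piglet. At 94 dpc its signal had a lowest value of 1.12, a median of 39.4 and a highest value of 249.9, and it lay above the array median in 4 of 16 fetuses. At 1 dpn the lowest, median and highest values were 718, 1598 and 3099. At 28 dpn they were 541, 1016 and 1289, and at 188 dpn 199, 708 and 1442. All 14, 15 and 16 postnatal animals lay above the array median. The gene was thus at its highest shortly after birth, and each later stage had a lower median while staying far above the typical fetus.

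Among the fetuses the deposited signals of SULT1E1 spread widely. The gene was under 100 in 11 of 16 fetuses and under 10 in 4 of them, and the highest fetus stood 223-fold above the lowest. The SD of log2 signal at 94 dpc was 2.61, larger than that of 99.9% of all probe-sets at that stage, whose median SD was 0.532. After birth the highest animal stood 4.32-fold above the lowest at 1 dpn, 2.38-fold at 28 dpn and 7.24-fold at 188 dpn. The SDs were then 0.51, 0.43 and 0.74. The wide fetal spread lay in signals under the array median. With those raised to the median, the SD at 94 dpc was 0.172 and the highest fetus stood 1.64-fold above the lowest. Raising them narrows the fetal spread by construction, so these 2 values cannot be set beside those of later stages. Neither the exact fetal level nor its spread is therefore settled by these arrays.

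**Figure D1:**
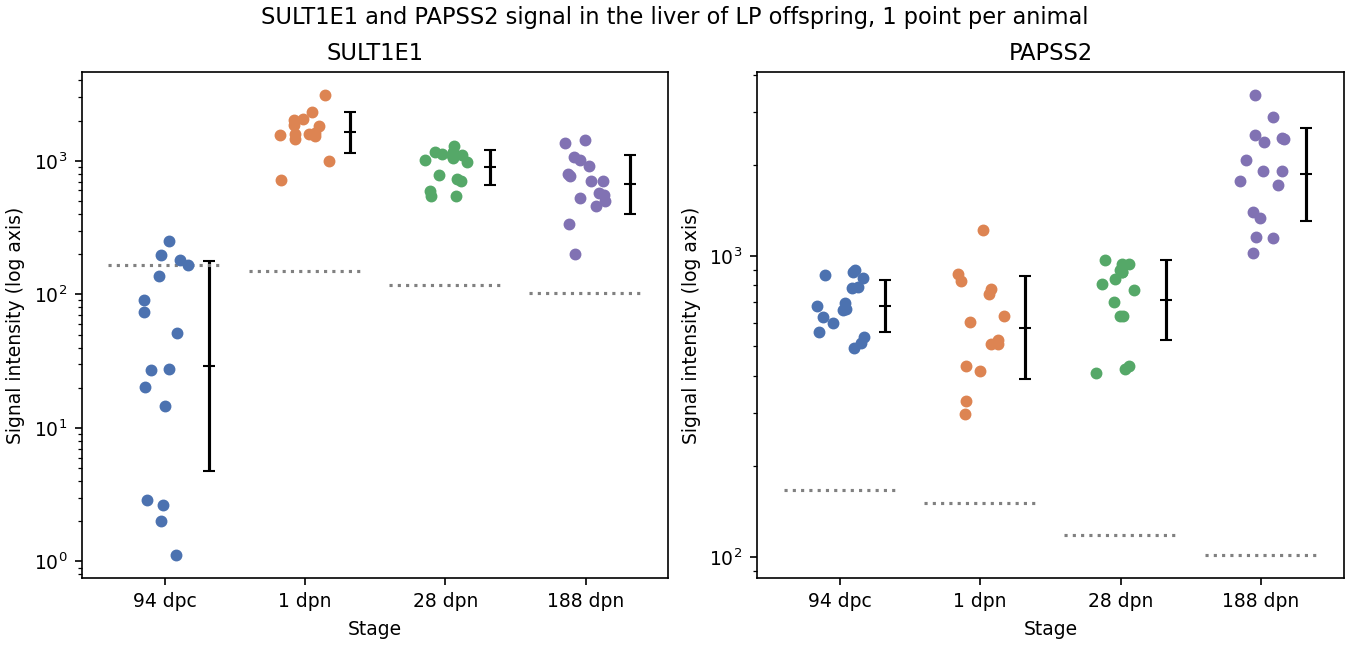
Signal intensity (log axis) of SULT1E1 (left) and PAPSS2 (right) in each animal by stage, with the geometric mean and ± 1 SD of log2 signal as black marks and the stage's median array signal as a dotted line. For SULT1E1 all piglets at 1 dpn lie above all fetuses, and for PAPSS2 the 16 pigs at 188 dpn lie between 1024 and 3415, above every pig at 28 dpn.

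In period I SULT1E1 averaged 10.68 ± 0.51 in log2 signal at 1 dpn (SD, n = 14) and 4.86 ± 2.61 in the fetuses (SD, n = 16), a difference of 5.82 (SE 0.67) or 56.3-fold. Ordered by change, it stood at place 8 of 12227 tested probe-sets. No piglet overlapped with any fetus. With each weak signal raised to its array median the difference was 3.24, at place 22 of 11625, so the larger figure rests on signals near the lower end of the array. Over all tested probe-sets 3.39% were higher at 1 dpn with no overlap and 26.1% were called higher, where a call is P and q at or below 0.05 in limma. Because the gene was chosen for this contrast, nothing is read from its place beside those shares.

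After birth the differences were smaller and the stages overlapped. At 28 dpn SULT1E1 averaged 9.80 ± 0.43 in log2 signal, 0.88 (SE 0.18) below 1 dpn or 1.84-fold lower, and 12 of 14 piglets at 1 dpn lay above every pig at 28 dpn. At 188 dpn it averaged 9.38 ± 0.74, and the difference from 28 dpn was -0.42 (SE 0.22). Of the 16 pigs at 188 dpn, 5 lay below all pigs at 28 dpn and 2 lay above them. The decline in mean from 28 to 188 dpn is within the pooled SD of 0.604, and it was -0.22 after removal of 9 arrays whose control transcripts had outlying 3' to 5' differences. From highest to lowest the stages thus ran 1 dpn, 28 dpn, 188 dpn and 94 dpc. The neighbours 28 and 188 dpn did not differ beyond their spread. Pigs at 188 dpn still exceeded the fetuses by 4.52, or by 1.94 with weak signals raised to the array median, with 15 of 16 above all of them. For 28 dpn minus 94 dpc the values were 4.94 and 2.36.

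PAPSS2 followed another course, with similar deposited signals up to 28 dpn and a higher level in the oldest pigs. Its lowest, median and highest signals were 492, 673 and 899 at 94 dpc and 297, 565 and 1221 at 1 dpn. At 28 dpn they were 408, 805 and 966, and at 188 dpn 1024, 1910 and 3415. Unlike SULT1E1, PAPSS2 lay above the array median in every animal of every stage. All 16 pigs at 188 dpn were above 1000, whereas 1 piglet at 1 dpn and no pig at 28 dpn was above 1000.

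In period III PAPSS2 averaged 10.86 ± 0.51 in log2 signal at 188 dpn (SD, n = 16), against 9.48 ± 0.44 at 28 dpn (SD, n = 15), a difference of 1.38 (SE 0.17) or 2.61-fold. The stages did not overlap, and the gene stood at place 65 of 10959. Over all tested probe-sets 0.511% were higher at 188 dpn with no overlap and 18.3% were called higher. As the choice of the gene used this contrast too, these shares stand as background. Against the fetuses the difference at 188 dpn was 1.45, with no overlap, and against 1 dpn it was 1.69, with 13 of 16 pigs above every piglet.

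In the earlier periods PAPSS2 moved little. The difference was -0.24 (SE 0.17) for 1 dpn minus 94 dpc and 0.31 (SE 0.19) for 28 dpn minus 1 dpn, and the animals overlapped both times. Both values are under the pooled SDs of 0.45 and 0.509. As deposited, the stages 28 dpn, 94 dpc and 1 dpn therefore did not differ beyond their spread, and 188 dpn stood above them. This depends on the scaling: with array medians subtracted, 28 dpn exceeded 1 dpn by 0.65 and 94 dpc by 0.56, more than the pooled SDs of 0.51 and 0.376, though the animals still overlapped. Variation among animals was narrowest before birth, with an SD of 0.29 at 94 dpc, against 0.57 at 1 dpn.

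The genes thus had their highest levels at different postnatal stages, SULT1E1 at 1 dpn and PAPSS2 at 188 dpn. Between postnatal neighbours, as deposited, SULT1E1 differed by more than the pooled SD only in period II and PAPSS2 only in period III. Both genes kept the sign of each period's difference under quantile normalization and with array medians subtracted. With array medians subtracted SULT1E1 differed by 5.96, -0.53 and -0.26 in periods I, II and III, and PAPSS2 by -0.09, 0.65 and 1.54. The scaling matters for smaller differences, because the tested probe-sets had median changes of -0.158, -0.138 and -0.135 in the 3 periods as deposited, against 0.0156, 0.27 and 0.0696 with array medians subtracted. Relative to the deposited median change, SULT1E1 differed by 5.97 in period I and PAPSS2 by 1.52 in period III.

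Whether pigs with more SULT1E1 also had more PAPSS2 was tested within each stage, since the choice of genes did not use the differences among animals of 1 stage. Pearson's r was -0.061 at 94 dpc (permutation P = 0.82, n = 16), -0.188 at 1 dpn (permutation P = 0.523, n = 14), 0.14 at 28 dpn (permutation P = 0.615, n = 15) and 0.183 at 188 dpn (permutation P = 0.502, n = 16). Spearman's rho was 0.0235 (permutation P = 0.935), -0.0901 (permutation P = 0.759), 0.407 (permutation P = 0.134) and 0.153 (permutation P = 0.571) in the same order. After Benjamini-Hochberg adjustment over the 4 relations no P for r was below 0.82 and none for rho below 0.535. Without the 2 animals farthest from the stage median of SULT1E1, r was 0.0106, 0.0901, 0.189 and -0.0092. No relation between the genes was detected among animals of the same age. Samples of this size would miss a weak relation and could miss a moderate one. At 94 dpc SULT1E1 lay above the array median in 4 of 16 fetuses, so r there rests mostly on weak signals.

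The rest of the sulfation pathway was tested in 3 lists, namely other cytosolic sulfotransferases, supply and recycling of PAPS, and formation of sulfate from cysteine. Of 31 listed genes 13 were on the array. In period I 12 of them were tested, of which 8 were called higher and 2 lower, and in period II 6 of 13 were higher and 4 lower. In period III 7 of 13 were higher and 5 lower. Over all probe-sets tested, 26.1% were called higher and 41.6% lower in period I, 29.0% and 41.4% in period II, and 18.3% and 35.7% in period III. Calls are thus common on these arrays in every period. The fits of adjacent periods share the animals of the stage between them.

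Besides SULT1E1, SULT2A1 and SULT1A3 were the cytosolic sulfotransferases annotated on the array, and both rose in each period. SULT2A1, which sulfates dehydroepiandrosterone and bile acids, had medians of 659 in the fetuses, 12190 at 1 dpn, 21582 at 28 dpn and 26374 in pigs of 188 dpn. The piglets at 1 dpn, from 3198 to 45152, did not overlap with the fetuses, from 345 to 1358. The log2 difference of SULT2A1 was 4.21 in period I (SE 0.31, q = 9.87e-14 by limma), 0.83 in period II and 0.30 in period III. The last of these lost its call under quantile normalization and with all 4 stages in 1 fit. Thus both SULT1E1 and SULT2A1 had their largest difference around birth, but SULT2A1 did not decline after it.

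SULT1A3, named SULT1A1 among its RefSeq synonyms, belongs to the phenol sulfotransferases. Its medians were 914 in the fetuses, 2783 at 1 dpn, 5924 at 28 dpn and 14756 in pigs of 188 dpn. The differences of 1.52 (SE 0.25), 1.09 (SE 0.33) and 1.34 (SE 0.27) in periods I, II and III were all called higher (q = 8.49e-07, 0.000794 and 4.1e-05 by limma). Its postnatal medians thus rose where those of SULT1E1 fell, and in period III its difference lay near the 1.38 of PAPSS2. Whether the probe-set also reads other SULT1A transcripts was not tested.

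**Figure D2:**
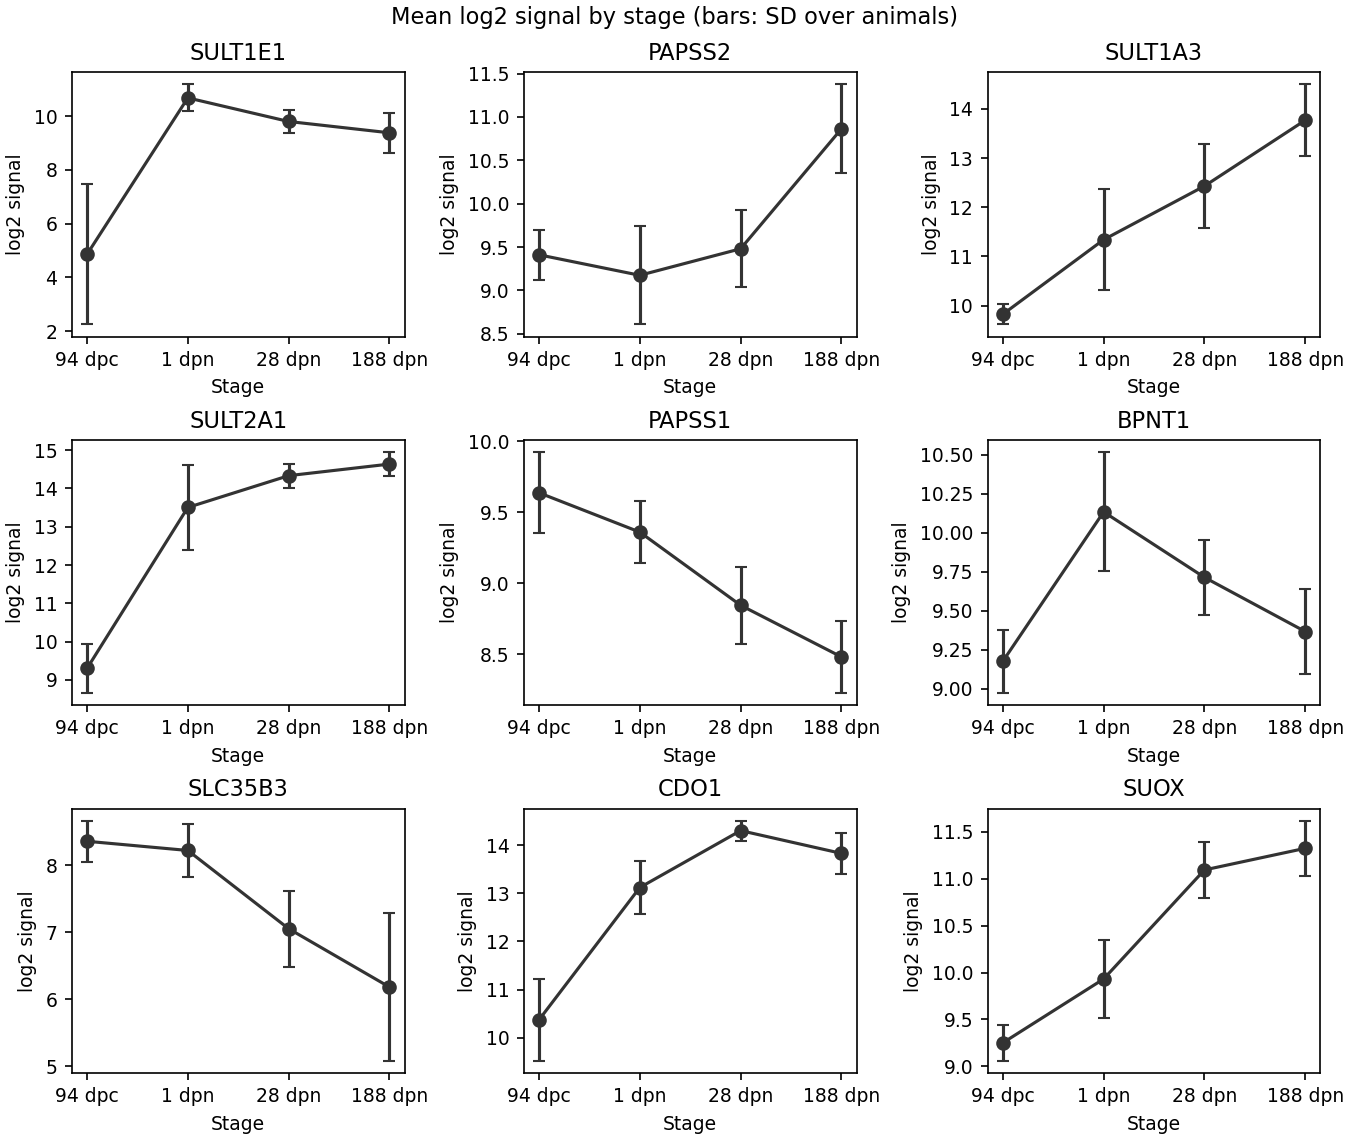
Mean log2 signal (vertical axes, each panel on its own range) of SULT1E1, PAPSS2 and 7 further sulfation genes at the 4 stages (horizontal axes), with bars of 1 SD over the animals. SULT1A3 and SULT2A1 are higher at each later stage, PAPSS1 and SLC35B3 are lower at each later stage, and BPNT1 has its highest mean at 1 dpn like SULT1E1.

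PAPSS1, the other PAPS synthase, did not share the course of PAPSS2. Its medians were 803 in the fetuses, 654 at 1 dpn, 458 at 28 dpn and 373 in pigs of 188 dpn, a lower level at each later stage. The log2 differences were -0.28 (SE 0.10), -0.51 (SE 0.10) and -0.36 (SE 0.10), all called lower (q = 0.00329, 6.66e-06 and 0.000944 by limma). They stayed negative but lost their calls in all 3 periods with array medians subtracted, where they were -0.13, -0.17 and -0.20, and in period I also under quantile normalization. A dimmer PAPSS1 probe-set was not tested and differed by 0.25, -2.09 and -0.73. In period III the pigs at 188 dpn thus had 2.61-fold more PAPSS2 signal than those at 28 dpn and a lower PAPSS1 signal. Signals of different probe-sets do not show which synthase was the more abundant.

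The remaining genes of PAPS supply and recycling each took their own course. BPNT1 removes a phosphate from the spent donor that sulfotransferases leave behind. Its medians were 573, 1149, 834 and 673 over the 4 stages, with differences of 0.96 (SE 0.11, called higher), -0.42 and -0.35 (called lower). Both lower calls were lost with array medians subtracted, at -0.07 and -0.19. BPNT1 and SULT1E1 both had their highest mean at 1 dpn, with a far smaller range in BPNT1.

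SLC35B2 and SLC35B3 carry PAPS into the Golgi, where carbohydrates and proteins are sulfated. SLC35B3 had medians of 332, 290, 137 and 88.4 over the 4 stages. It differed by -1.17 (SE 0.18) in period II and -0.87 (SE 0.30) in period III, both called lower, and by 188 dpn it lay above the array median in 5 of 16 pigs. The period III call was lost, at -0.399, after removal of those 9 arrays. Its difference in period I was -0.14, not called, and turned to 0.03 under quantile normalization and 0.01 with array medians subtracted. SLC35B2 did not pass the filter on spread in period I, was not called in period II, at -0.10 (0.24 and called with array medians subtracted), and rose by 0.34 (SE 0.10) in period III.

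**Figure D3:**
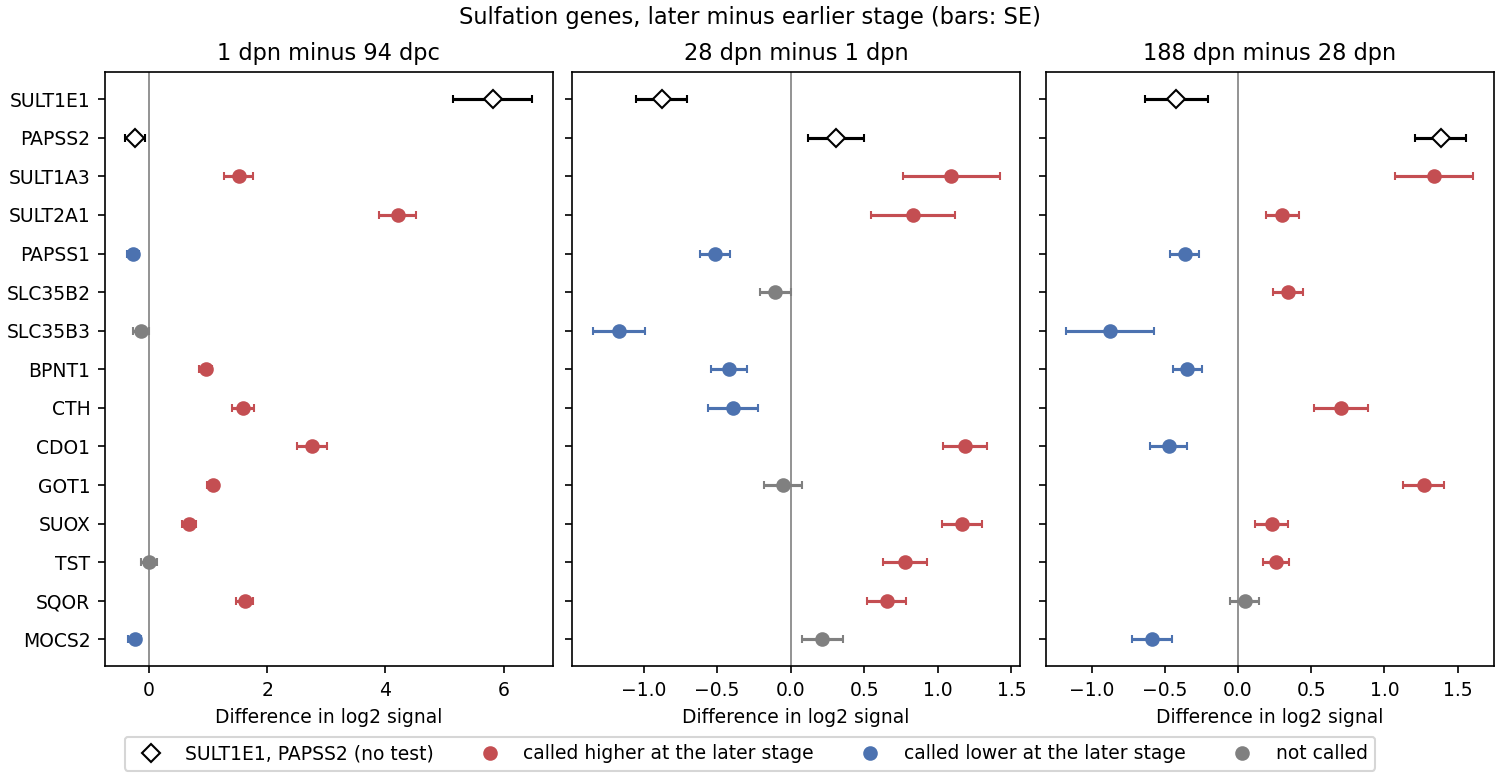
Difference in log2 signal (horizontal axes, each with its own range) between adjacent stages for SULT1E1, PAPSS2 and the 13 other annotated sulfation genes (vertical axis). Bars are 1 SE and colours give the limma call. In period I the differences of SULT1E1 (5.82) and SULT2A1 (4.21) lie farthest to the right, and in period III those of PAPSS2 (1.38), SULT1A3 (1.34) and GOT1 (1.27).

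Sulfate itself is formed in the liver from cysteine, and 7 of 12 listed genes of this route were annotated on the array. Most of those tested rose around birth. Of 7 tested in period I, 5 were called higher, and 3 of these had no overlap between piglets and fetuses, against 26.1% and 3.39% of all tested probe-sets. CDO1, which oxidises cysteine to cysteine sulfinate, had medians of 1195, 8894, 20157 and 15622 over the 4 stages. It rose by 2.75 (SE 0.25) in period I and 1.18 (SE 0.15) in period II and fell by 0.47 (SE 0.12) in period III. SUOX, the sulfite oxidase that yields sulfate, had medians of 603, 999, 2257 and 2599. It rose by 0.68 (SE 0.12) and 1.16 (SE 0.13) in periods I and II. Its difference of 0.23 in period III was called (q = 0.0239 by limma) but lost the call under quantile normalization, with Benjamini-Hochberg adjustment and in 3 other alternatives.

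CTH, which makes cysteine from cystathionine, rose by 1.59 (SE 0.19) in period I and by 0.70 (SE 0.18) in period III. It fell by 0.39 (SE 0.17) in period II, a call lost with array medians subtracted, at -0.04. GOT1, the cytosolic aspartate aminotransferase that also acts on cysteine sulfinate, rose by 1.08 (SE 0.09) in period I and 1.27 (SE 0.14) in period III. In period II it differed by -0.05, not called, or by 0.29 and called with array medians subtracted. GOT1 and PAPSS2 thus both had their largest postnatal difference between 28 and 188 dpn.

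SQOR and TST act on sulfide and thiosulfate in mitochondria. SQOR rose by 1.62 (SE 0.14) in period I and 0.65 (SE 0.13) in period II and was not called in period III, at 0.05 (0.21 and called with array medians subtracted). TST differed by -0.00186 in period I (not called), or by 0.02 with array weights and 0.14 with array medians subtracted, and rose by 0.78 (SE 0.15) and 0.26 (SE 0.09) in periods II and III. MOCS2, needed for the molybdenum cofactor of SUOX, gave calls that depended on the probe-set. Its brighter one was lower in periods I and III, at -0.24 and -0.59. The dimmer one was higher in period I, at 0.55, and lower in period II, at -1.38, so no course is given for this gene.

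Sulfation in the Golgi and removal of sulfate were represented by fewer genes. Of 29 Golgi sulfotransferases 5 were annotated on the array, and of 16 sulfatases 7. CHST14, which sulfates dermatan, differed by -0.89 (SE 0.16) in period I, 0.91 (SE 0.16) in period II and -0.24 in period III, where the call was lost in 6 alternatives. Its other probe-set was not called in period II, at 0.30. Among the sulfatases, ARSA, which cleaves sulfatides in lysosomes, had medians of 470, 237, 988 and 1148 over the 4 stages. It fell by 0.98 (SE 0.18) in period I and rose by 2.05 (SE 0.18) in period II, where the stages did not overlap. IDS, which removes sulfate from heparan and dermatan sulfate, rose by 0.65 (SE 0.13) and 1.51 (SE 0.12) in the same periods. Of the sulfatases tested, 1 of 5 was called higher and 2 lower in period I, 3 of 6 higher and 1 lower in period II, and 1 of 4 higher in period III. The shares of all tested probe-sets called higher and lower were 26.1% and 41.6% in period I, 29.0% and 41.4% in period II, and 18.3% and 35.7% in period III. SGSH was lower in period II, at -0.55 (SE 0.22), and SUMF1, which activates sulfatases, in period I, at -0.41 (SE 0.19). The call of SGSH was lost under quantile normalization and with array medians subtracted, and that of SUMF1 in 6 alternatives.

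A further list held genes that handle oestrogens or other steroids, of which 11 were tested in each period. Of these, 6 were higher and 4 lower in period I, 6 and 3 in period II, and 5 and 3 in period III. Those called higher included HSD11B1 (2.28) and HSD11B2 (2.11) in period I and HSD3B1 (2.01) in period II. HSD11B2 was weak, above the array median in 0 of 16 fetuses and 7 of 14 piglets at 1 dpn. Over all tested probe-sets 26.1% were called higher and 41.6% lower in period I, 29.0% and 41.4% in period II, and 18.3% and 35.7% in period III. HSD17B2, which oxidises oestradiol to oestrone, had medians of 20296 in the fetuses, 4995 at 1 dpn, 14304 at 28 dpn and 24936 in pigs of 188 dpn. It differed by -1.94 (SE 0.28), 1.15 (SE 0.34) and 1.07 (SE 0.22), all called, and its second probe-set differed by -1.67, 1.36 and 1.30. HSD17B2 thus had its lowest median at 1 dpn, where SULT1E1 had its highest, although HSD17B2 was strong in the fetuses and SULT1E1 was not. HSD17B14, another 17-beta-dehydrogenase, resembled SULT1E1 in its early course, with medians of 163, 1343, 262 and 377. It rose by 2.91 (SE 0.12) in period I and fell by 2.17 (SE 0.13) in period II, each without overlap. CYP1A1, which hydroxylates oestradiol, rose by 3.27 (SE 0.40) in period I and fell by 1.19 (SE 0.45) in period III, the second a call lost after removal of those 9 arrays. The oestrogen receptor ESR1 was tested in no period, with stage medians from 75.0 to 138.4, under those of the arrays.

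Of the other conjugating enzymes, 7 of 12 were called higher and 2 lower in period I, 7 of 11 higher and 0 lower in period II, and 4 of 8 higher and 1 lower in period III. Among all tested probe-sets 26.1% were called higher and 41.6% lower in period I, 29.0% and 41.4% in period II, and 18.3% and 35.7% in period III. GNMT, which methylates glycine, had medians of 160 in the fetuses, 3117 at 1 dpn, 8398 at 28 dpn and 17187 in pigs of 188 dpn and was called higher in each period. The glutathione transferase GSTA1 rose by 1.46 (SE 0.50) in period I and 2.26 (SE 0.30) in period II. GSTA4 of the same family fell by 1.54 (SE 0.27) in period III, while PAPSS2 was higher. The list thus held no lower call in period II, in which 41.4% of all tested probe-sets were called lower.

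Nuclear receptors and other liver factors were listed because several of them are known, mainly from mice, to act on genes of this kind. Of these, 7 of 16 tested were higher and 4 lower in period I, 6 and 7 of 19 in period II, and 3 and 3 of 17 in period III. The shares over all tested probe-sets were 26.1% higher and 41.6% lower, 29.0% and 41.4%, and 18.3% and 35.7%. With so few genes, and 1 probe-set for each, nothing is read from the counts of this list. PPARA, a receptor for fatty acids, had medians of 11.8 in the fetuses, 182 at 1 dpn, 44.4 at 28 dpn and 36.5 in pigs of 188 dpn. It rose by 3.79 (SE 0.28) in period I, against weak signals in the fetuses, and fell by 2.01 (SE 0.25) in period II, or by 0.58 with weak signals raised to the array median. RORA rose by 1.11 (SE 0.20) in period I and fell by 1.58 (SE 0.21) in period II, and NR1I2, the pregnane X receptor, fell by 1.34 (SE 0.12) in period II. CEBPD, an acute phase factor, rose by 1.51 (SE 0.14) and 1.02 (SE 0.15) in periods I and II, though 1 of its 3 probe-sets was not called in period II, at 0.09. PPARA and RORA thus had their highest medians at 1 dpn, as SULT1E1 did. In period III the largest called change among the leading probe-sets was 0.76 (SE 0.15) for CEBPB. A dimmer probe-set of NR3C1, the glucocorticoid receptor, was lower by limma, at -1.04 (SE 0.38), while its leading one was not called, at -0.09.

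The genes whose log2 signal was most like that of the pair over the 61 arrays were sought among 5507 genes. The coefficients are descriptive, since the arrays share 4 stages. For SULT1E1 they were LOC396684 (r = 0.863), which has no name in the tables used, ACADVL (r = 0.856), GK (r = 0.837), LRG1 (r = 0.833), LONP2 (r = 0.832), WFDC1 (r = 0.828), GPR4 (r = 0.822) and HPD (r = 0.818). ACADVL oxidises very long chain fatty acids, GK phosphorylates glycerol and HPD degrades tyrosine. All 8 had their lowest mean at 94 dpc. HPD had the widest range, with mean log2 signals of 13.58 at 1 dpn and 5.45 at 94 dpc.

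For PAPSS2 the closest genes were GABARAPL1 (r = 0.802), SLC3A1 (r = 0.785), MAT1A (r = 0.774), KLF15 (r = 0.767), NFKBIL1 (r = 0.755), SLC25A38 (r = 0.755), KIAA1191 (r = 0.749) and SEPHS2 (r = 0.746). SLC3A1 is a subunit of the cystine transporter, MAT1A forms S-adenosylmethionine from methionine, and KLF15 is a transcription factor of amino acid breakdown and gluconeogenesis. All 8 had their highest mean at 188 dpn. SLC3A1 had mean log2 signals of 6.23, 6.59, 6.48 and 9.13 over the 4 stages. The lists for SULT1E1 and PAPSS2 shared no gene.

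**Figure D4:**
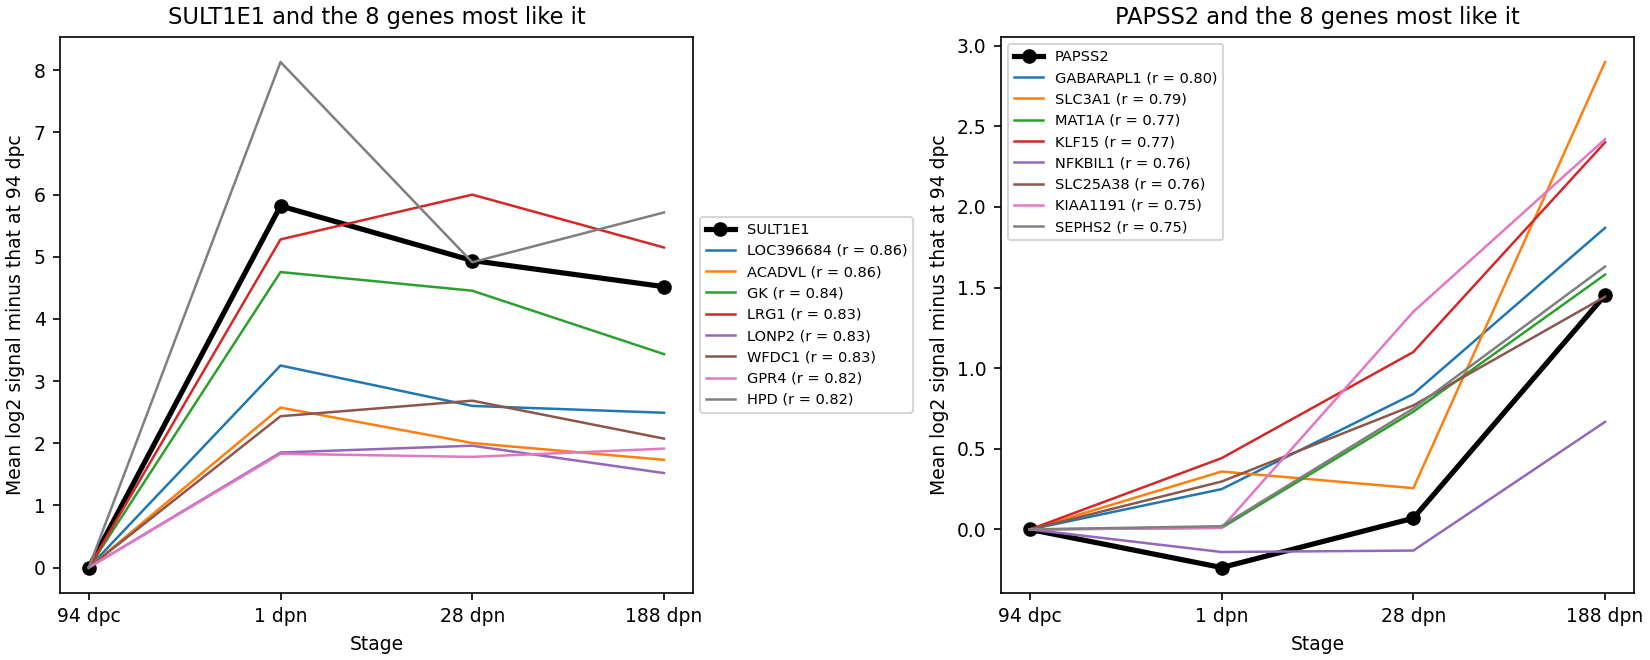
Mean log2 signal at each stage minus that at 94 dpc (vertical axes) for SULT1E1 (left) and PAPSS2 (right) in black, with the 8 genes most like each over 61 arrays as coloured lines. The genes on the left are above their fetal mean at every postnatal stage, and those on the right have their highest point at 188 dpn.

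With stage means subtracted the likeness was weaker. For SULT1E1 the closest genes were then PYGM (r = 0.606), C9 (r = 0.53), GPR4 (r = 0.509), C7H6orf52 (r = 0.474) and CAPSL (r = 0.455), with Spearman's rho between 0.176 and 0.291. The fetal signals of SULT1E1, mostly under the array median, enter these coefficients. For PAPSS2 they were SUCLA2 (r = 0.54), SRSF6 (r = 0.53), TAF11 (r = 0.527), USP10 (r = 0.518) and CCNJ (r = 0.516), with rho between 0.412 and 0.545. Only GPR4 among these 10 genes had also been close over all arrays.

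Cell markers and RNA measures moved with stage as well. In period I 41.6% of all tested probe-sets were called lower and 26.1% higher. All 6 erythroid markers annotated on the array were called lower there. Their summed signal was 1080 to 4230 at 1 dpn (median 2020), against 2990 to 31300 at 94 dpc (median 13500). At 1 dpn 4 of the 6 exceeded the array median in 50% or more of the livers, against 6 at 94 dpc, and none was at 0. In period II 41.4% of all tested probe-sets were called lower and 29.0% higher. There 6 of 6 tested neutrophil markers were called lower, with a summed signal of 486 to 2040 at 28 dpn (median 1180), against 2340 to 23700 at 1 dpn (median 4930). Of 7 tested hepatocyte markers 6 were called lower in that period, with a summed signal of 338000 to 606000 at 28 dpn and 413000 to 670000 at 1 dpn. All 4 tested T and NK cell markers were called higher, with a summed signal of 788 to 4690 at 28 dpn (median 2150) and 216 to 551 at 1 dpn (median 393). Of 7 Kupffer and macrophage markers 5 were called higher, with 46600 to 67400 at 28 dpn (median 61500) and 20600 to 38900 at 1 dpn (median 26700). In period III 35.7% of all tested probe-sets were called lower and 18.3% higher. There 6 of 6 tested Kupffer and macrophage markers were called lower. CD5L of the same list was not tested there and had medians of 11422 at 28 dpn and 12886 at 188 dpn. The summed signal of the list was 37000 to 51000 at 188 dpn (median 42800), against 46600 to 67400 at 28 dpn (median 61500). The 3' to 5' difference of beta-actin, which grows as RNA is degraded or labelled incompletely, was 2.27, 1.78, 3.94 and 4.03 in log2 signal over the 4 stages. That of GAPDH ordered the stages otherwise, at 1.05, 0.394, 0.793 and 0.64, and that of EF1A was -0.0164, -0.14, 0.389 and 0.558. The part of these shifts in the differences of SULT1E1 and PAPSS2 was not tested. After removal of the 9 arrays with outlying 3' to 5' differences SULT1E1 differed by 6.04 in period I and PAPSS2 by 1.47 in period III.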

How the data were processed

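Liver RNA of 61 LP offspring was hybridised to 1 array per animal. The authors deposited 1 linear signal intensity per probe-set, globally scaled, made with GCOS 1.1.1 by the submitters' notes. The trimmed mean was 500.127 to 500.229 on each array. GC-RMA values, present calls and the mixed model of the study were not used here. Stages were taken from the sample labels.

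Of 24123 probe-sets 124 were controls, and 10069 carried 1 gene symbol (9961 of them in the RefSeq table). The deposited intensities were taken to log2. Probe-sets that exceeded the array median in 50% or more of the livers of 1 stage, with an SD above 0.25, were tested per period by limma 3.58.1 in R 4.3.3, two-sided, with stage as the only term. A call needed P and Storey's q at or below 0.05, with q computed over all probe-sets tested. Per gene the probe-set with the highest mean led. SE of the pair's differences are from unequal variances. Correlations used 100000 permutations (scipy 1.17.1).

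Named genes were the pair, all measured genes of the 3 sulfation lists, and the 8 and 5 genes of highest r. From each other list up to 4 called genes with the largest change per period could be named. Only some of these are given in the text, so those given are not always the largest changes. HSD17B2 and ESR1 were also followed outside that rule, after their values were seen. The probe-sets of NR3C1 and the marker CD5L were given outside it too. The pair and all gene lists were chosen with earlier results of these data known. Alternatives covered scaling, weak signals, a pseudocount of 16, left-out arrays, filters, array weights (statmod 1.5.0), fits and probe-sets. The fit and the permutation test were tested on simulated data. Array number limits the precision.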

Additional observations from a re-analysis of the deposited data

How the results depend on the processing

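All differences of SULT1E1 and PAPSS2 between adjacent stages kept their direction in each alternative run. SULT1E1 in period I moved to 3.24 with the array median as floor. No paired analysis was possible because the stages share no replicate numbers and the labels do not give the litters, some of which may span the postnatal stages.

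Among the 3 sulfation lists, the 2 genes called lower in period I became 0 under quantile normalization, with array medians subtracted and with averaged probe-sets, and 1 with Benjamini-Hochberg adjustment and with all 4 stages in 1 fit. With array medians subtracted, those called lower numbered 1 in period II and 3 in period III, against 4 and 5. Under quantile normalization those called higher in period III numbered 4, against 7. Over all 8 lists the genes called lower in periods I, II and III were 15, 16 and 14, and with array medians subtracted 8, 8 and 8. Subtracting array medians moves all genes of an array by the same amount, whereas quantile normalization moves each by its rank.

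Over all tested probe-sets the calls were 3189 higher and 5091 lower in period I, 3510 and 5018 in period II, and 2008 and 3912 in period III. Under quantile normalization they were 3804 and 4263, 4342 and 4102, and 2726 and 2773. With array medians subtracted they were 4137 and 4003, 6013 and 2878, and 3627 and 2466. Without a filter on intensity they were 4097 and 6444, 3823 and 7827, and 2049 and 4262.

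Directions turned for SLC35B3 in period I (0.0336 under quantile normalization, 0.00749 with array medians subtracted), TST in period I (0.14 with array medians subtracted, 0.0242 with array weights), SLC35B2 (0.24) and GOT1 (0.29) in period II with array medians subtracted, SULF2 in period II with the floor (-0.0161) and MOCS2 in period II with the mean of its probe-sets (-0.58). Pearson's r of the pair turned to 0.0883 at 94 dpc with the floor and to -0.0565 at 188 dpn without arrays of outlying 3' to 5' differences. The causes were not tested. Of the other values for single genes, 1076 kept direction and call, 42 lost the call and 3 gained it. Where an alternative's filter removed a gene, as for PPARA in period I with the floor, it gave no value.

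Weak signals limit the fetal values of SULT1E1, 12 of which were below their array medians. Stage is also inseparable from experiment in period I, from fasting in period II and from feed and housing in period III. Unmodelled littermates may make P-values too small. AP offspring were not analysed here.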
